A study of Mus musculus with 12 samples.

Results

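Neurotransmitter receptor genes were taken as the genes whose symbol names a subunit or receptor for glutamate, GABA, glycine, acetylcholine, serotonin, dopamine, or adrenaline and noradrenaline, and their loci were the peaks of 5mC or 5hmC that the authors assigned to such a gene as the nearest. In all, 267 of 55085 5mC loci lay nearest to 63 receptor genes and 394 of 47478 5hmC loci lay nearest to 69, together 661 of 102563 loci and 73 genes, of which 59 had loci of both marks. Cells came from the cortex of E14.5 mouse embryos heterozygous for both the Btg2-RFP and the Tubb3-GFP reporter, alleles that were thus shared by every group. Proliferating progenitors (PP) carried neither reporter, differentiating progenitors (DP) carried RFP but not GFP, and neurons were sorted for GFP whether or not they carried RFP, so that a reporter and not an antibody to a cell type defined each group. DNA of the cell types was sheared, barcoded, mixed, and pulled down together with an antibody to 5mC (MeDIP) or to 5hmC (hMeDIP), and the series lists 12 samples, 6 pull-downs and 6 inputs, with an untreated input for each pull-down.

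Glutamate acts on AMPA, NMDA, and kainate receptors, which are ion channels, and on metabotropic receptors coupled to G proteins, whereas GABA and glycine open chloride channels and GABA acts through GABA-B receptors as well. Most of these receptors are known for their work at synapses, and several are already present in embryonic cortical cells before synapses form. In DNA, 5mC is the methylated cytosine and 5hmC is made from it by Tet enzymes.

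The deposited level of a locus is log2 of its normalized reads, averaged by the authors over the replicates of a cell type, so that a difference of 1 is a 2-fold change. A locus was called as gaining or losing a mark where these means differed by at least 1.5-fold, which is 0.585 on the log2 scale. The tables hold no values of single replicates, no inputs, and no counts, hence a call is a difference between means without a test, the counts behind it are not in the tables, and it was read beside the share of all loci of the same table that passed the same limit. Over all loci, the median 5mC level was lower in neurons than in DP (-0.18 on the log2 scale) and than in PP (-0.17), and 5mC changes were therefore also centred on the median of all loci. In sorted bulk cells, fewer cells of a type and less of a mark or RNA per cell cannot be told apart.

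Receptor loci lay farther from gene starts than most loci. The median distance to the start of the assigned gene was 44.9 kb for receptor 5mC loci and 20.4 kb for all 5mC loci, and 55.3 kb and 27.2 kb for 5hmC. Only 42 of the 267 receptor 5mC loci (15.7%) and 57 of the 394 receptor 5hmC loci lay within 10 kb of the start, against 30.1% and 25.8% of all loci, while 45.3% and 49.5% lay inside the gene, against 40.2% and 36.2%. In the RefSeq annotation of GRCm38.p6 (mm10), 24 of the 5mC loci and 13 of the 5hmC loci lay within the body of another protein-coding gene and not within the assigned one, among them 4 5mC and 3 5hmC loci of Grik4 in Arhgef12 and all 4 5mC loci of Chrnb2 in Adar.

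Few promoters of receptor genes overlapped a peak, at shares no lower than those of all genes, and those that did are shown. RefSeq promoter windows of 300 bp, from 250 bp before the start to 50 bp after it, were found for 51 of the 73 receptor genes (63 windows). A 5mC peak overlapped 1 window (1.59%, against 1.1% of 32851 windows of all genes) and a 5hmC peak overlapped 3 (4.76%, against 1.26%), and the windows held a median of 13 CG dinucleotides, against 7. The 6-base sequence CAGATG, searched on both strands, was found in 2 receptor windows (3.17%) and in 17.2% of all windows. The windows of all genes came from 27025 genes and were not matched to the receptor genes by type of gene. The windows of the serotonin receptors Htr1d (chr4:136423274-136423573, plus strand) and Htr1a (chr13:105443443-105443742, plus strand) and of the AMPA receptor subunit Gria4 (chr9:4796185-4796484, minus strand) are given 5′ to 3′ with each CG in capitals.
Htr1d: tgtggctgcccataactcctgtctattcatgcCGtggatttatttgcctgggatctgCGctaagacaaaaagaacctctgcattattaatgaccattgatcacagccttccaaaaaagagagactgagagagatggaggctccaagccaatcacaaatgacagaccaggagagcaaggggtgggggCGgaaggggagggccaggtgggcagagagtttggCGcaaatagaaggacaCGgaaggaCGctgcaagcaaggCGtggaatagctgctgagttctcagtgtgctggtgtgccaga
Htr1a: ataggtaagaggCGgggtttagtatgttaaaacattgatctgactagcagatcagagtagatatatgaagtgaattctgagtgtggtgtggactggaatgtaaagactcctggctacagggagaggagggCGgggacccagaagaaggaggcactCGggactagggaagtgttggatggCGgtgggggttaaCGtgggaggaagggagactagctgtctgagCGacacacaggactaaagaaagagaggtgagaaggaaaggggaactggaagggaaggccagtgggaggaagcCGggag
Gria4: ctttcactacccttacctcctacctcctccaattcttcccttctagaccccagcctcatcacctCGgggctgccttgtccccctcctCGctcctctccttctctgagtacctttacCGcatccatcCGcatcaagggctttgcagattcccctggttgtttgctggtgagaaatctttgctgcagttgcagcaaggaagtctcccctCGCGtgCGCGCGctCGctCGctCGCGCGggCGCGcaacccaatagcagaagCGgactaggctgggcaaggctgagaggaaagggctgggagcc

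At the Htr1d start, the 5mC level was 4.52 in PP, then 4.21 in DP and 3.77 in neurons, and the 5hmC level of an overlapping peak was 4.14, 4.01, and 4.49. This promoter thus lost 5mC from PP to neurons (-0.74) while its 5hmC differed by 0.35, within the limit, but after centring the 5mC change (-0.57) was within the limit as well. The 5hmC peak over the Htr1a start stayed close to its PP level, with 5.61, 5.61, and 5.43. In Gria4 the 5hmC peak reached only 15 bp into the window, at its upstream end and over none of its CG dinucleotides. It had levels of 4.70, 5.05, and 4.83.

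From PP to DP, receptor loci gained 5mC more often than all loci, while their losses were nearer to the share of all loci. In this step 21 receptor loci of 12 genes gained 5mC, 7.87% of the 267, against 4.51% of all loci, and 19 loci of 15 genes lost it, 7.12% against 5.53%. Of the 21 gains, 6 were at the 26 loci of a single gene, Adra2a. The excess of gains was not present among loci at or above the median level, of which 2 of 115 gained 5mC (1.74%, against 2.02%). From DP to neurons, 9 loci gained 5mC (3.37%, against 2.26%) and 41 lost it (15.4%, against 15.5%), so that receptor loci lost 5mC as often as the whole table did. Over the whole path from PP to neurons, 7 loci gained 5mC (2.62%, against 2.12%) and 41 lost it (15.4%, against 16.3%). The median 5mC change of receptor loci from PP to neurons was -0.15, and 0.018 after centring, by which 26 loci lost and 12 gained 5mC (9.74% and 4.49% of receptor loci, against 10.2% and 5% of all loci).

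In 5hmC, receptor loci had fewer gains and more losses than the table as a whole. From PP to DP, 32 loci of 14 genes gained 5hmC (8.12%, against 11.1%) and 27 loci of 24 genes lost it (6.85%, against 4.74%). From DP to neurons, 45 gained (11.4%, against 15.8%) and 35 lost it (8.88%, against 7.8%). Between PP and neurons, 58 loci of 19 genes had more 5hmC in neurons (14.7%, against 20.2%) and 59 loci of 35 genes had less (15%, against 10.8%), and the median change was -0.18, against -0.081 over all loci. The balance of gains and losses depends on the limit, and at 2-fold 42 loci gained (10.7%, against 13.1%) and 9 lost 5hmC (2.28%, against 1.76%). With 5hmC changes centred on the median of all loci as well, 65 loci gained (16.5%, against 22.1%) and 43 lost it (10.9%, against 7.71%). At 1.5-fold without centring, the 58 gains lay in 19 receptor genes and the 59 losses in 35. Over all loci, 9607 gains lay in 4882 genes and 5137 losses in 3833, so gains had more loci per gene there too. Grik4, Gabbr2, Drd1a, and Adrb1, picked for the most gains after their values were seen, held 31 of the 58 gains in 73 loci. The other 321 loci held 27 (8.41%), a share that this choice lowers. A gain and a loss occurred together in 14 receptor genes, and 29 genes with 81 loci showed neither.

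**Figure D1:**
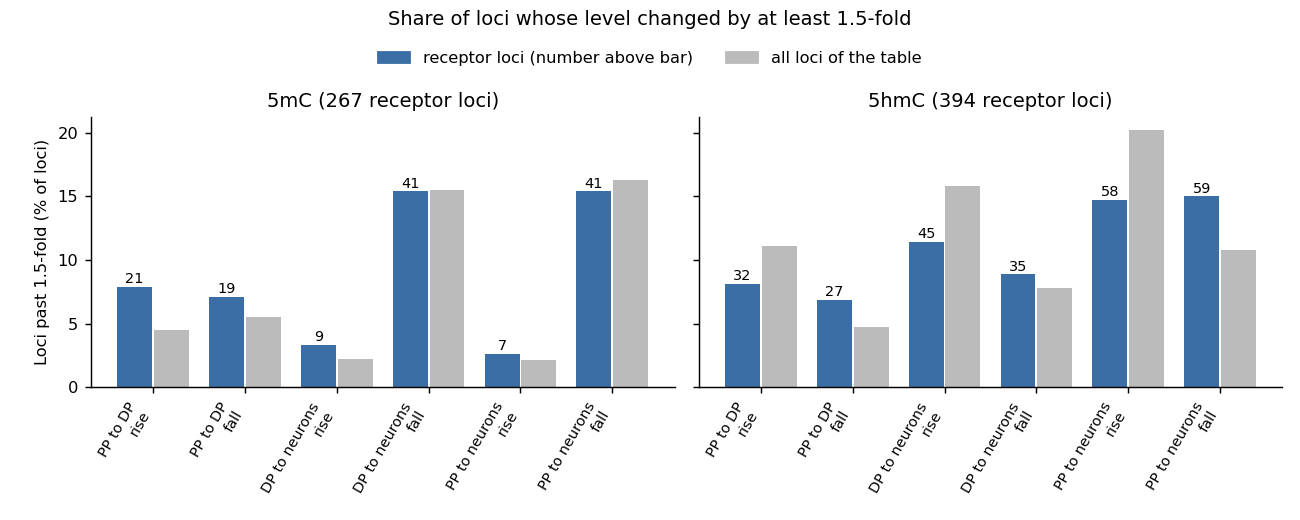
Share of loci (y axis, percent) called as gaining or losing 5mC (left) or 5hmC (right) in each step between cell types (x axis), for receptor loci (blue, with the number of loci above each bar) and all loci of the table (grey). Losses of 5mC reached 15.4% of receptor loci from DP to neurons and 15.5% of all loci, while 5hmC gains from PP to neurons reached 14.7% and 20.2%.

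The loci called between PP and neurons had DP levels in between. The 58 loci with a 5hmC gain had a median level of 3.78 in PP, then 4.54 in DP and 5.22 in neurons, and the 59 with a 5hmC loss had 4.84, 4.62, and 4.05. The 41 loci with a 5mC loss had medians of 4.87, 4.55, and 3.92, close to 4.88, 4.67, and 3.95 for the 8999 such loci of the whole table. These medians describe loci selected on PP and neurons.

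Among the channels for glutamate, kainate receptor genes carried the most 5hmC gains. Of 49 kainate receptor loci, 16 gained and 7 lost 5hmC from PP to neurons, whereas 4 of 26 AMPA and 4 of 34 NMDA receptor loci gained it and 2 and 8 lost it. The shares with a gain were thus 32.7%, 15.4%, and 11.8%, against 20.2% of all loci, and those with a loss 14.3%, 7.69%, and 23.5%, against 10.8%. After centring, the gains were 16, 4, and 5 and the losses 6, 2, and 5, so that NMDA receptor losses no longer outnumbered the gains. Most kainate gains were those of Grik4, and of the other 26 kainate loci 4 gained 5hmC (15.4%). For 5mC, 5 of 27 kainate, 2 of 14 AMPA, and 6 of 20 NMDA receptor loci showed a loss (18.5%, 14.3%, and 30%, against 16.3% of all loci) and none of them a gain, whereas after centring 3, 1, and 4 showed a loss and 1 AMPA receptor locus a gain. The delta receptor gene Grid1, a member of the same family known for organizing synapses, had no 5hmC call in this comparison among 5 loci and changes between -0.42 and 0.17.

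Grik4, a kainate receptor subunit, gained 5hmC at 12 of 23 loci and lost it at 3, with a median change of 1.04. These were 52.2% and 13%, against 20.2% and 10.8% of all loci. Its locus inside the gene at chr9:42901606-42901747, 42.8 kb from the start, had 5hmC levels of 0.93 in PP, then 2.88 in DP and 5.03 in neurons, a 17.2-fold gain in total that was shared by both steps. A locus at chr9:42759496-42759619, singled out after its values were seen, went from -0.051 in PP through 1.55 in DP to 4.15 in neurons. The PP levels of both are low, as the median over all 5hmC loci in PP was 4.72, and -0.051 is the lowest level in that column, held by 105 loci, so that the fold of the latter locus cannot be read as a size. Levels below 1 in PP were found at 336 of the 5hmC loci, 6 of them receptor loci, and these 6 include the largest differences given here. Nearby, at chr9:42756752-42756929, 5hmC went the other way, with 4.46, 4.62, and 3.10. Of the 14 5mC loci of Grik4, 3 lost and none gained 5mC from PP to neurons, and 1 of them lost it after centring.

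Grik5, which forms channels together with other kainate receptor subunits, lost 5mC inside the gene at chr7:25047470-25047593, where the level was 5.21 in PP, then 4.36 in DP and 2.61 in neurons (6.09-fold lower). It was called in each step. The 5hmC levels of an overlapping peak were 4.42, 5.04, and 5.09.

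The NMDA receptor subunit Grin2a had the most loci of any receptor gene, 15 of 5mC and 26 of 5hmC. A locus at chr16:9751562-9751665, deep within the gene at 243 kb from its start, had a 5hmC level of 2.67 in PP, then 2.12 in DP and 5.09 in neurons, so that the 7.84-fold gain fell entirely in the step from DP to neurons. Another 5mC locus inside the gene, chr16:9683936-9684082, had 4.60, 5.06, and 3.79. Downstream of Grin2a, at chr16:9497183-9497359, 5hmC was 4.44 in PP, then 4.99 in DP and 3.84 in neurons. From PP to neurons 6 of the 26 loci lost 5hmC (23.1%, against 10.8% of all loci) and 4 gained it (15.4%, against 20.2%). After centring 4 lost and 5 gained it, where the shares of all loci were 7.71% and 22.1%.

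For AMPA receptors, Gria1 had 26 of the 40 loci. A 5mC locus 4.95 kb upstream of its start, chr11:57006374-57006497, had 4.42 in PP, then 5.11 in DP and 4.24 in neurons, a gain in DP that was not kept. A locus inside the gene, chr11:57127205-57127405, singled out after its values were seen, kept its 5mC from PP (4.40) to DP (4.43) and fell to 1.79 in neurons (6.22-fold). Upstream of Gria4, chr9:4854186-4854317 gained 5mC from DP to neurons, with 4.46, 4.38, and 5.02.

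Metabotropic glutamate receptors lost 5hmC from PP to neurons at 8 of 41 loci (19.5%, against 10.8% of all loci). They gained it at 3 (7.32%, against 20.2%). After centring 6 lost and 4 gained it, where the shares of all loci were 7.71% and 22.1%. For 5mC, 3 of 25 loci showed a loss (12%, against 16.3%), or 2 after centring. Grm4, a presynaptic receptor that lowers transmitter release, held 2 of the 5hmC gains. Its locus at chr17:27456638-27456763, 56.6 kb inside the gene, had 5mC levels of 6.07 in PP, then 5.38 in DP and 3.78 in neurons, and nearby chr17:27446883-27447024 had 5.68, 4.97, and 5.24, a loss in DP only. Far upstream of Grm7, 725 kb from its start, 5mC at chr6:109920634-109920806 was 5.09 in PP, then 4.20 in DP and 5.28 in neurons. A 5hmC locus at chr6:110162828-110162982, 483 kb upstream of the same gene, likewise had its lowest level in DP, with 5.04, 3.79, and 4.29.

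**Figure D2:**
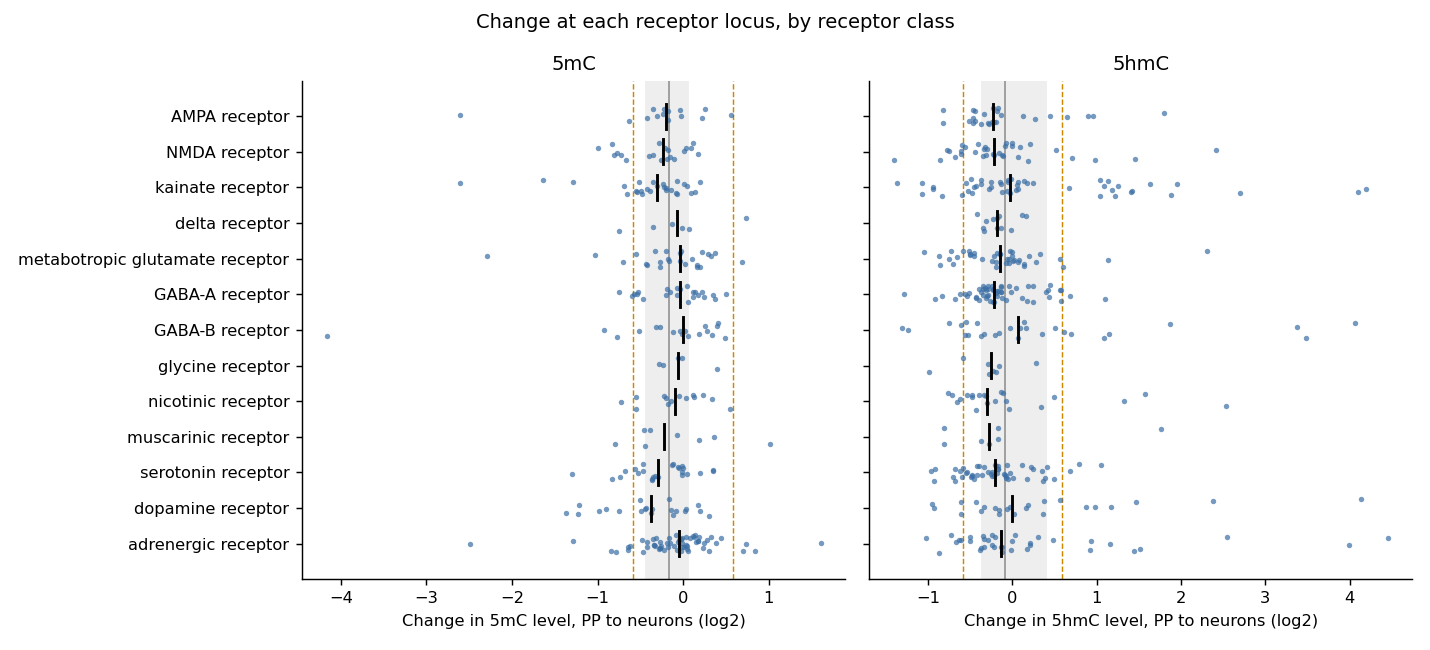
Difference in level from PP to neurons (x axis, log2) at each receptor locus (points), by receptor class (y axis), for 5mC (left) and 5hmC (right), with class medians (black bars), the quartile range and median of all loci (grey band and line), and the limits of 1.5-fold (dashed). All class medians lie within the grey band, while single loci reach -4.17 in 5mC and 4.45 in 5hmC. The first ends at the lowest 5mC level listed in neurons and the second starts from a low PP level.

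The GABA-A receptor genes, which encode the subunits of the chloride channel opened by GABA, were among the least changed. Of their 56 5hmC loci, 2 gained and 5 lost 5hmC from PP to neurons (3.57% and 8.93%, against 20.2% and 10.8% of all loci). After centring 5 gained and 4 lost it, where the shares of all loci were 22.1% and 7.71%. Of 23 5mC loci 2 lost 5mC (8.7%, against 16.3%) and none gained it, while after centring none lost and 1 gained it. Gabra2, with 12 5hmC loci and a single 5mC locus, accounted for both gains and for 2 of the losses. Glycine receptor genes had a single call from PP to neurons among 13 loci, a 5hmC loss upstream of Glra2, a subunit typical of embryonic glycine receptors. This was 1 of their 8 5hmC loci (12.5%, against 10.8% of all loci).

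By contrast, the GABA-B receptor genes Gabbr1 and Gabbr2, whose products join to form a receptor coupled to G proteins, gained 5hmC at 8 of 27 loci (29.6%, against 20.2% of all loci). They lost it at 4 (14.8%, against 10.8%), and all these loci lay inside the genes. Gabbr2 held 7 of the gains among 20 loci. Of these, the locus at chr4:46837684-46837798, singled out after its values were seen, went from 0.34 in PP through 2.54 in DP to 4.40 in neurons. In Gabbr1, 5hmC at chr17:37062325-37062493 was 5.18 in PP, then 5.39 in DP and 3.86 in neurons, a 2.88-fold loss in the last step. For 5mC, Gabbr2 showed a gain that was limited to DP at chr4:46967657-46967789, with 4.82, 5.71, and 4.70. The largest 5mC loss of any receptor locus from PP to neurons was in Gabbr2 as well, at chr4:46889457-46889575, singled out after its values were seen, with 4.28, 2.72, and 0.11, the last being the lowest 5mC level listed in neurons and held by 38 loci, so that no fold is given.

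Acetylcholine receptors showed few gains, and these were mostly in Chrnb2, the beta subunit of the main nicotinic receptor of the brain. Of 22 nicotinic receptor loci 3 gained 5hmC from PP to neurons, all 3 of them in Chrnb2, and 4 lost it. These were 13.6% and 18.2%, against 20.2% and 10.8% of all loci. After centring 3 gained and 2 lost it, where the shares of all loci were 22.1% and 7.71%. The Chrnb2 locus at chr3:89761069-89761372, 3.41 kb inside the gene, had 3.40 in PP, then 4.75 in DP and 4.98 in neurons, hence most of the gain lay in the first step. The gain farthest from the Chrnb2 start, at chr3:89747581-89747785, singled out after its values were seen, with 3.43, 4.59, and 4.75, lay within Adar. Chrna7, the nicotinic receptor gene with the most loci, lost 5hmC at 2 of 8 loci (25%, against 10.8% of all loci), or at 1 after centring. Among muscarinic receptors, Chrm4 gained 5hmC at chr2:91925522-91925735, inside the gene, with 5.30, 5.37, and 7.06, here almost entirely from DP to neurons. The other Chrm4 5hmC locus lost 5hmC (-0.80), and of the 7 muscarinic receptor loci 1 gained and 2 lost it (14.3% and 28.6%, against 20.2% and 10.8%). Chrm3 gained 5mC from PP to neurons at 1 of 5 loci (20%, against 2.12% of all loci).

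Of the monoamine receptors, serotonin receptor genes lost 5hmC from PP to neurons at 8 of 51 loci (15.7%, against 10.8% of all loci). They gained it at 3 (5.88%, against 20.2%). After centring 6 lost and 3 gained it, where the shares of all loci were 7.71% and 22.1%. For 5mC, 4 of 25 loci showed a loss (16%, against 16.3%), or 2 after centring. Htr1a, an inhibitory serotonin receptor, accounted for 4 of the 5hmC losses, and its locus at chr13:105840963-105841127, 397 kb downstream, had 4.79 in PP, then 3.98 in DP and 3.83 in neurons. At the Htr6 locus chr4:139081243-139081410, 5.76 kb upstream, 5mC was 4.90, 5.21, and 3.59. Htr2a, with 18 loci of both marks, had a single call from PP to neurons, a 5hmC gain at 1 of 12 loci (8.33%, against 20.2% of all loci).

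Dopamine receptor loci were mostly those of Drd1a, which encodes the D1 receptor and held 37 of 45 loci. From PP to neurons Drd1a gained 5hmC at 6 of 21 loci (28.6%, against 20.2% of all loci) and lost it at 3 (14.3%, against 10.8%). After centring 7 gained and 1 lost it, where the shares of all loci were 22.1% and 7.71%. Drd1a lost 5mC at 5 of 16 loci (31.2%, against 16.3%). Downstream of the gene, 5hmC at chr13:53941600-53941726 was 3.47 in PP, then 4.72 in DP and 2.55 in neurons, the only named locus at which a 5hmC gain in DP was reversed in neurons. In contrast, chr13:54028828-54028961, singled out after its values were seen, rose in each step, with 0.35, 2.08, and 4.49.

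Of 37 adrenergic receptor loci 8 gained and 6 lost 5hmC from PP to neurons (21.6% and 16.2%, against 20.2% and 10.8% of all loci). Adrb1, the beta-1 receptor for adrenaline and noradrenaline, gained 5hmC at 6 of 9 loci (66.7%, against 20.2% of all loci). It lost 5mC at 4 of 9 (44.4%, against 16.3%). It had no call in the other direction, and after centring 2 of its 5mC losses were left. Its locus 2.93 kb upstream of the start, chr19:56719374-56719515, gained 5hmC 21.9-fold from PP to neurons, from a low PP level, with 0.94 in PP, then 4.80 in DP and 5.39 in neurons, and it was called in each step. On the other side of the gene, 8.83 kb downstream of the start, 5mC at chr19:56731126-56731282, a locus singled out after its values were seen, was 4.16, 3.96, and 1.67. Adra2a, an alpha-2 receptor, was the receptor gene with the most 5mC loci, 26. From PP to neurons it gained 5mC at 3 and lost it at 3 of them (11.5% each, against 2.12% and 16.3% of all loci). After centring the counts were 4 and 2. At chr19:54123347-54123502, 5mC was 4.57, 5.27, and 4.55, again with its highest level in DP. Adra2b lost 5hmC in DP at chr2:127366818-127366946, inside the gene, with 4.91, 3.91, and 4.67.

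**Figure D3:**
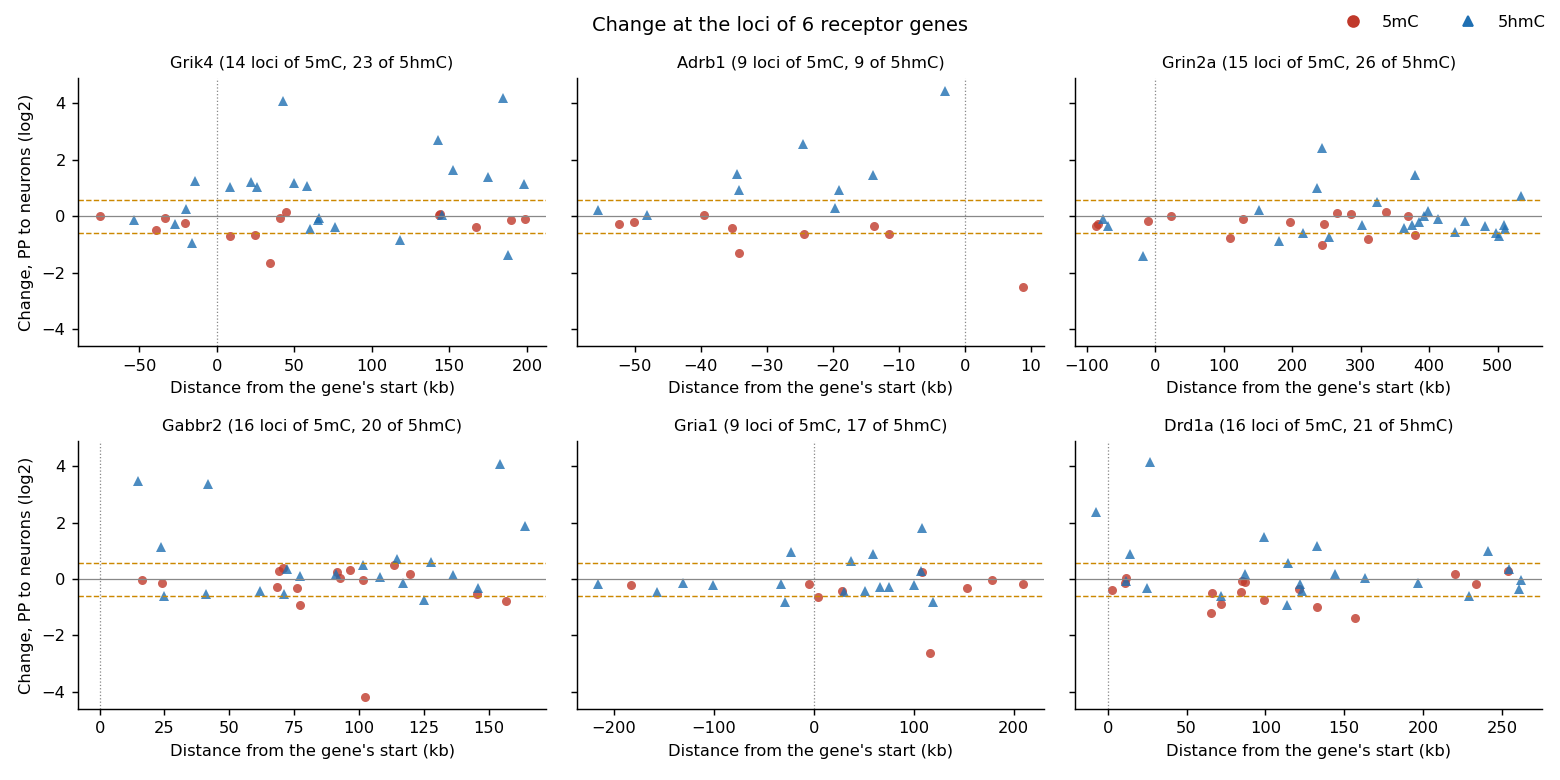
Difference in level from PP to neurons (y axis, log2) at each 5mC (red circles) and 5hmC (blue triangles) locus of 6 receptor genes against the distance from the start of the gene (x axis, kb, positive in the direction of transcription), with the limits of 1.5-fold (dashed). Loci with a 5hmC gain lie along Grik4 and upstream of Adrb1, where 12 of 23 and 6 of 9 loci gained 5hmC, next to loci below the limit.

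Some receptor loci were high and steady. Expressed per 100 bp of peak, the highest 5mC levels were found inside Grm3 (chr5:9570327-9570479), downstream of Adra2a (chr19:54353340-54353452), and downstream of Drd1a (chr13:53835351-53835473), and these had 8.50, 8.54, and 8.46, then 7.23, 7.17, and 7.20, then 6.92, 6.84, and 7.09 as levels of the whole peak in PP, DP, and neurons. For 5hmC, loci inside Grm4 (chr17:27467413-27467522, with 7.63, 7.46, and 7.38) and downstream of Drd1a (chr13:53932178-53932324, with 7.64, 7.54, and 7.21) were among the highest. None of these 5 loci was called in any step. The calls themselves depend on a limit that some loci missed narrowly. From PP to neurons, a 5mC locus in Gabrr2 (-0.57) lay just outside it, and for 5hmC a locus in Grm3 (-0.59) lay inside and a locus in Htr4 (-0.58) outside.

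To ask whether both marks changed at the same place, 5mC and 5hmC peaks that overlapped by at least 1 bp were paired. There were 38 such pairs at receptor genes, involving 37 5mC loci (13.9%, against 12.2% of all 5mC loci) and 38 5hmC loci (9.64%, against 14.2%). A loss of 5mC with a gain of 5hmC occurred in 2 pairs from PP to DP (5.26%, against 3.23% of 6727 pairs), in 9 from DP to neurons (23.7%, against 16%), and in 12 from PP to neurons (31.6%, against 22.4%). With both marks centred, an alternative chosen after seeing the data, there were 2 (5.26%, against 3.2%), 4 (10.5%, against 12.5%), and 9 (23.7%, against 18.8%), so that the share from DP to neurons was then below that of all pairs. The 12 pairs belonged to 7 genes and 11 5mC loci, since a single Adrb1 5mC locus met 2 5hmC loci. Some of their overlaps were short, with 3 and 50 bp upstream of Adrb1, 34 bp downstream of Drd1a, and 58 bp in Chrm4. From PP to neurons no receptor pair showed the converse change, which was rare among all pairs as well (14 of 6727). In 1 receptor pair, downstream of Drd1a, both marks were lost, against 51 of the 6727 pairs.

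In the pair 34.2 kb upstream of Adrb1, chr19:56688052-56688245, 5mC was 5.88 in PP, then 5.33 in DP and 4.59 in neurons while 5hmC was 4.89, 5.16, and 6.40. Just upstream of Grik5, 1.81 kb from its start, chr7:25074117-25074244 had 5mC levels of 4.87, 4.83, and 3.58 and 5hmC levels of 3.52, 4.04, and 4.94. At the Grm4 locus with the large 5mC loss, 5hmC was 5.31, 6.27, and 6.45, of which most was present in DP, where 5mC was between its other levels. For the Grin2a pair, 5mC was 5.47, 5.42, and 4.47 as 5hmC went from 2.12 in DP to 5.09 in neurons. In Chrm4 5mC was 6.25, 6.17, and 5.44, and in the Drd1a pair at chr13:53956169-53956302 it was 7.29, 7.15, and 6.53 with 5hmC at 4.22, 4.69, and 5.69. The Drd1a pair at chr13:53922990-53923142 had 5mC of 5.36, 5.48, and 4.37 and 5hmC of 4.22, 4.08, and 5.38. Within Grik4, at chr9:42936095-42936212, 5mC was 4.04, 4.72, and 3.35 and 5hmC was 3.34, 2.72, and 4.38, so that in DP both marks were displaced against their later direction. This 5mC loss from PP to neurons (-0.69) was within the limit after centring (-0.52), as were those of a Grin2a pair and an Adrb1 pair. At the Htr6 locus, in contrast, 5mC was lost but 5hmC was 5.73, 5.52, and 5.40.

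**Figure D4:**
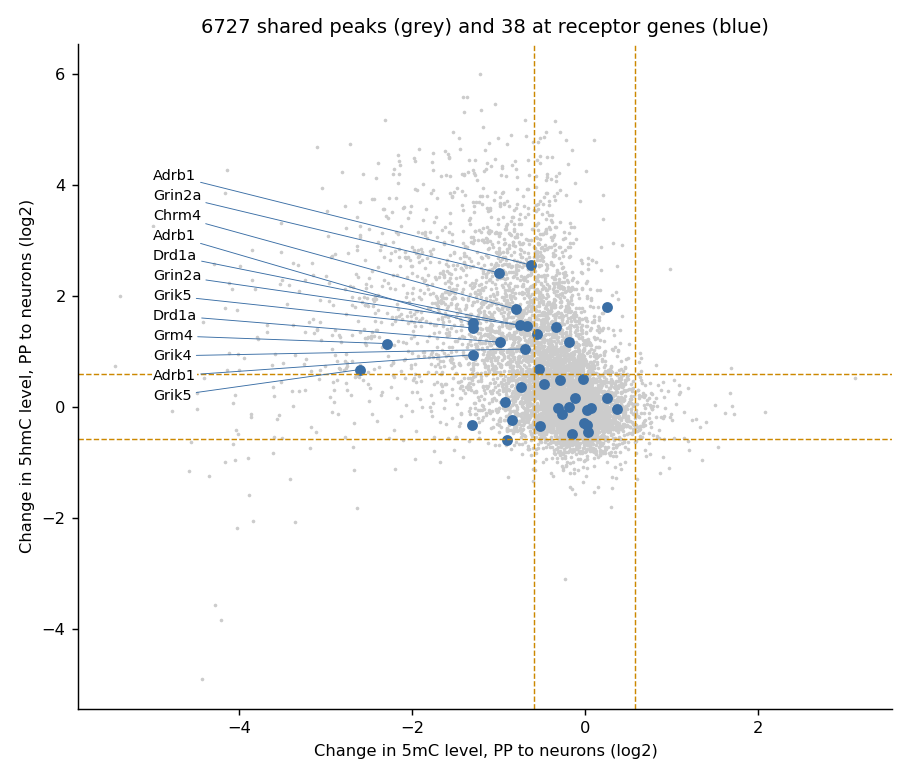
Difference in 5mC (x axis, log2) against the difference in 5hmC (y axis, log2) from PP to neurons at all 6727 pairs of overlapping peaks (grey) and at the 38 pairs of receptor genes (blue), with the limits of 1.5-fold (dashed) and gene names at the 12 pairs that lost 5mC and gained 5hmC. No receptor pair and only 14 of all 6727 pairs lie in the lower right corner, where 5mC is gained and 5hmC lost.

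The expression of receptor genes, which the authors took from their earlier RNA sequencing of the same cell types, was much higher in neurons. Of the 73 genes, 44 reached a value of 100 in at least 1 cell type, and 33 of these were at least 1.5-fold higher in neurons than in PP (75%, against 31.1% of all genes of the tables above the same minimum), with 3 at least 1.5-fold lower (6.82%, against 26.1%). In the step from PP to DP 23 were higher (52.3%, against 13.2%) and 7 lower (15.9%, against 11.3%), and from DP to neurons 34 were higher (77.3%, against 25.7%) and 6 lower (13.6%, against 22.6%). The values are means of the authors without a spread, and their scale is not named in the tables.

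Among the largest ratios from PP to neurons were those of Gabbr2 (2.1 in PP, then 12.4 in DP and 1185 in neurons), Drd1a (1.5, 3.1, and 549.7), the glycine receptor subunit Glra2 (6.9, 21.3, and 2496), and Chrm3 (0.9, 3.2, and 218). The larger part of each rise lay in the step from DP to neurons. Genes below the minimum in PP make such ratios uncertain, and among abundant transcripts Gria2, the AMPA receptor subunit that limits calcium entry, had 8634 in PP, then 10030 in DP and 49907 in neurons. The beta subunit Chrnb2 rose early, with 373 in PP, then 2842 in DP and 10621 in neurons. Lower values in neurons than in PP were found for Adra1a (131, 35.6, and 16.3), Gabrq (130.5, 46.2, and 42.2), and Gabra4 (373, 461, and 128), and the next in order, Chrnb4 (55.4, 232, and 45.3) and Grik2 (4290, 5791, and 3939), did not reach 1.5-fold, although Chrnb4 was 4.18-fold higher in DP than in PP.

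By class, all 4 AMPA, all 4 NMDA, and all 5 metabotropic glutamate receptor genes above the minimum were higher in neurons than in PP, as were 7 of 10 GABA-A, 4 of 5 nicotinic, and both GABA-B and muscarinic receptor genes. None of the 4 kainate receptor genes was, Grik5 having 8179, 7763, and 12165 and Grik4 83.4, 144, and 108. Grik4 thus combined gains of 5hmC at 12 of 23 loci with expression that differed by less than 1.5-fold between PP and neurons.

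**Figure D5:**
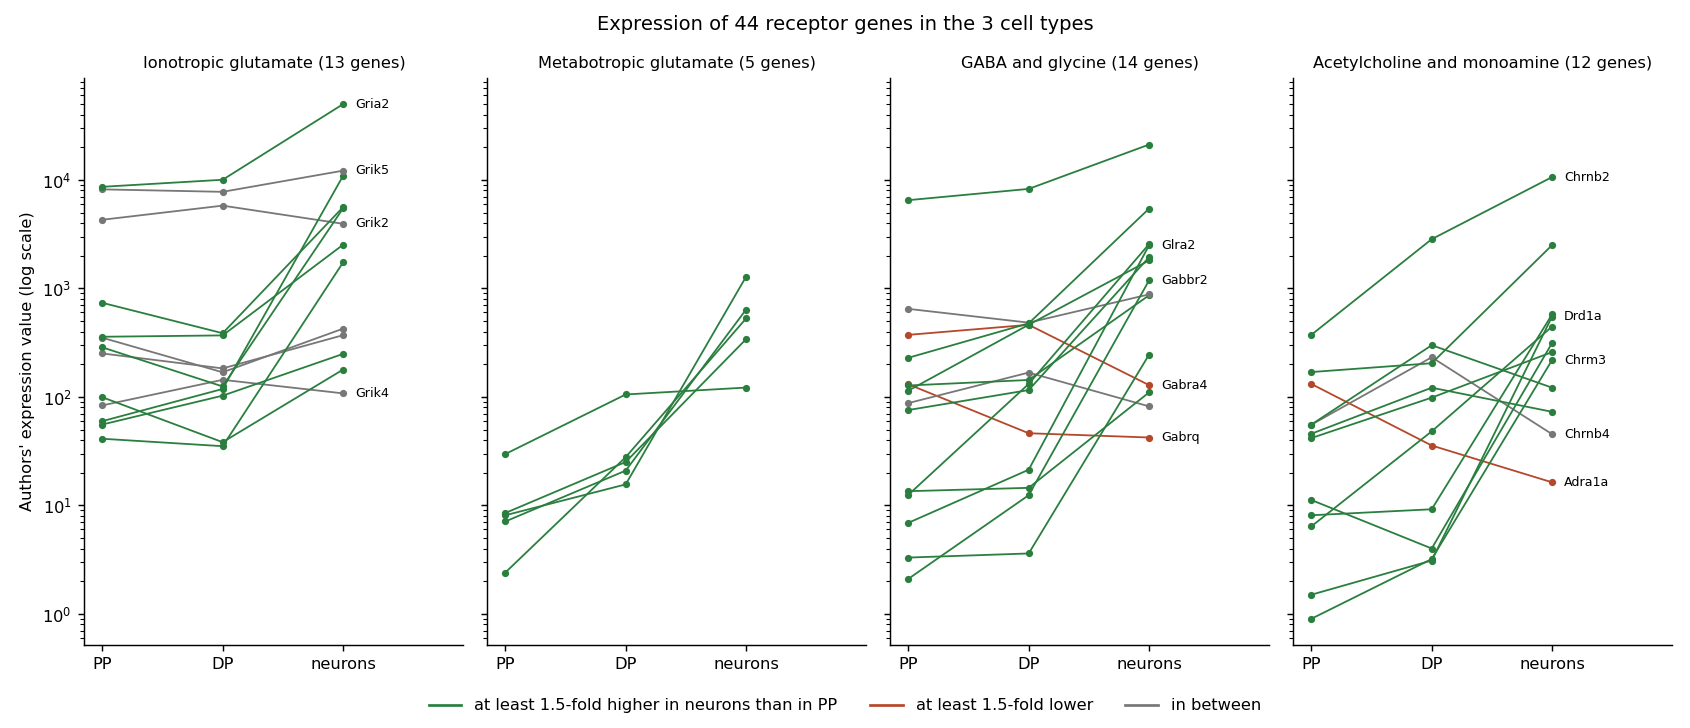
Expression value of the authors (y axis, log scale) in PP, DP, and neurons (x axis) for the 44 receptor genes that reached 100 in 1 cell type, 1 line a gene, in 4 panels by transmitter, with names at the genes whose values are given in the text. Of the lines 33 are green (at least 1.5-fold higher in neurons than in PP) and 3 are red (at least 1.5-fold lower), while 8 are grey.

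Loci of the receptor genes that were higher in neurons gained 5hmC and lost 5mC less often than loci near all genes that were higher. Among 178 5hmC loci of such genes 33 gained 5hmC from PP to neurons (18.5%, against 23.7% of loci near all genes that were higher) and 24 lost it (13.5%, against 10.3%), and among 120 5mC loci 18 lost 5mC (15%, against 20.5%) and 1 gained it. Receptor genes below the expression minimum had the fewest 5hmC gains, 9 of 141 loci (6.38%, against 18.8% for all genes below it), and 25 losses (17.7%, against 10.9%). Receptor genes above the minimum that were not higher had 16 gains among 75 loci (21.3%, against 19%), and 12 of these were in Grik4.

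In the earlier RNA sequencing, the cell types carried their own markers in the order of the labels, and markers of other cells moved too. The lists of DP and neuron markers include Btg2 (38556 in DP) and Tubb3 (105657 in neurons), the genes of the reporters used for sorting. Their part of this order was thus set by the sorting, and the values do not come from the cells pulled down here. Summed expression of 7 PP markers was 229023 in PP, then 116902 in DP and 13896 in neurons, of 7 DP markers 59642, 163912, and 31192, and of 8 neuron markers 10539, 95521, and 404562. All 6 interneuron markers in the tables were higher in neurons than in PP (summed 982, 3688, and 11033), as were all 5 Cajal-Retzius markers (summed 215, 1906, and 37394, mostly Reln). Microglia markers (364, 228.5, and 83.3 for 5 genes), endothelial and pericyte markers (1867, 694, and 193 for 7 genes), and oligodendrocyte lineage markers (687, 559, and 62.8 for 5 genes) were lower in neurons. The part of interneurons, Cajal-Retzius cells, and these other cells in the receptor values was not tested.

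Genes that work with the receptors behaved alike in expression. Of 61 genes for postsynaptic scaffolds, auxiliary subunits, and transmitter synthesis or transport, 51 had a locus, 47 passed the expression minimum, and 35 of these were higher and 4 lower in neurons than in PP (74.5% and 8.51%, against 31.1% and 26.1% of all genes). For scaffolds 15 of 19 were higher and none lower, for example Shank1 (1541, 1243, and 24098). Of auxiliary subunits 13 of 18 were higher and 1 lower, and Gsg1l, which belongs to AMPA receptor complexes, was 75.1 in PP, then 626 in DP and 3414 in neurons. Gsg1l lost 5mC at 6 of 13 loci, and of 17 5hmC loci 5 gained and 1 lost 5hmC. It alone held 6 of the 12 5mC losses among the 66 loci of auxiliary subunits (18.2%, against 16.3% of all loci). Cacng5, a further AMPA receptor auxiliary subunit, was lower (275, 446, and 62.2), lost 5mC at 2 of 9 loci, and gained 5hmC at 1 of 3. Transmitter genes were divided, with 7 of 10 higher and 3 lower, the latter being the glial glutamate transporter Slc1a3 (18015, 5274, and 872), the glycine transporter Slc6a9, and the GABA transporter Slc6a11. Over the 3 lists, 26 of 154 5mC loci lost 5mC (16.9%, against 16.3% of all loci) and 5 gained it from PP to neurons (3.25%, against 2.12%), and 30 of 206 5hmC loci gained 5hmC (14.6%, against 20.2%) and 24 lost it (11.7%, against 10.8%).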

How the data were processed

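DNA from PP, DP, and neurons was profiled by MeDIP and hMeDIP in 12 samples (6 pull-downs and 6 inputs). As the authors describe, reads were aligned to mm10 with BWA 0.7.8-r455 and peaks called with SICER 1.1, peaks found in all replicates were merged without those in repeats, levels were normalized by TMM in DiffBind, and peaks were annotated with HOMER 4.7. The deposited levels are log2 values, 1 for each peak and cell type, which the authors averaged over replicates. The deposited expression and distance columns are used as a score (no unit is named) and as bp from the gene start. Columns with the authors' own fold changes, p-values, and adjusted p-values between cell types, for levels and for expression, were not used. The antibodies differ, so 5mC and 5hmC levels are not compared, and a level covers a whole peak, so loci were compared per 100 bp only. No input values and no replicate values were analysed here, the tables give no depth per sample, and no test was run. Per-sample columns left unused numbered 0.

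Receptor loci were the rows whose gene symbol matched the receptor families, without interacting or binding proteins, Grina, and adrenergic receptor kinases. Differences between mean levels were called at 1.5-fold, and expression ratios at 1.5-fold with a value of 100 in 1 cell type. The members and gene lists were chosen with earlier results of these data known. Named loci were, for each mark, step, and direction between PP and DP or DP and neurons, the 3 with the largest change among loci at or above the median level, the 3 highest per 100 bp, the 10 pairs with the largest joint change, the 5 genes with the largest expression rise and fall, the gene with most loci in each class, and the loci nearest the limit, and other loci are said to be singled out. Values of some genes that this rule names are not reported here. Gene lists were counted as given, and the list of erythroid markers had none of its 5 genes in the tables. Counting was tested on simulated data. Python 3.11.15, pandas 2.3.3, numpy 2.4.6, scipy 1.17.1, and matplotlib 3.10.9 were used, and coordinates are as deposited. Promoter windows came from RefSeq (GRCm38.p6). Alternatives were a limit of 2-fold, centring, high levels only, loci inside the gene or within 50 kb, single counting of peaks, gene medians, autosomes, a 50% overlap, and other expression limits.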

Additional observations from a re-analysis of the deposited data

How the results depend on the processing

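No paired analysis was possible because the tables give 1 mean per cell type, and for the same reason none was left out in turn. Windows around peak centres were not run, since no genome sequence was used here, and the promoter windows given in their place, like the centred pairs and the counts without loci inside another protein-coding gene, were chosen after seeing the data. Leaving out those loci, counting each peak once, using autosomes only, or asking for an expression ratio of 2 kept every count within 1.5 times and every median within its interval. This interval spans the middle ranks of the receptor loci. It treats loci of the same gene as independent, so it is a yardstick and not a test. The counts are given as gains then losses.

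Under a limit of 2-fold, 5mC calls went to 4 and 3 for DP against PP, 1 and 15 for neurons against DP, and 2 and 13 for neurons against PP, and 5hmC calls to 19 and 3, 18 and 9, and 42 and 9. Fewer loci pass a higher limit by construction. Of these shares only that of 5mC losses from DP to neurons turned its order, with 5.62% of receptor loci and 4.99% of all loci. With only the 115 5mC and 201 5hmC loci whose highest level reached the median of their table, 5mC calls were 2 and 5, 1 and 15, and 1 and 16, and 5hmC calls 16 and 10, 24 and 10, and 37 and 26 in the same steps. Here the order of the shares of receptor loci and all loci was turned for 5mC gains from PP to DP (1.74% and 2.02%), 5mC losses from DP to neurons (13% and 10.5%) and from PP to neurons (13.9% and 11.3%), and 5hmC losses from DP to neurons (4.98% and 5.22%), while 5hmC gains from PP to neurons took 18.4% and 20.4%.

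Centring moved 5mC calls to 16 and 25 from DP to neurons and 12 and 26 from PP to neurons, and the medians to -0.0005 and 0.018. The 5hmC median from PP to neurons went to -0.095, the Grik4 5mC loss to -0.52, and the pairs with a 5mC loss and a 5hmC gain from DP to neurons to 4. The median 5mC change from DP to neurons over genes was -0.11. Inside genes or within 50 kb, 2 loci gained 5mC from PP to neurons (0.98%, against 2.05%) and 22 lost 5hmC from DP to neurons (7.67%, against 7.62%). The order of the shares was turned for these 5mC gains. It was also turned for 5mC losses from DP to neurons (17.2%, against 15.2%) and from PP to neurons (17.2%, against 16.1%). With an overlap of 50% of the shorter peak, 31 pairs were left. Of these 5 lost 5mC and gained 5hmC from DP to neurons, and 8 did so from PP to neurons. Without an expression minimum, 19 genes were lower in DP than in PP, 12 in neurons than in DP, and 9 in neurons than in PP. The causes were not tested.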
